A study of Mus musculus with 8 samples.

Results

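The genes described here encode the nuclear subunits of the 5 complexes of oxidative phosphorylation, with a few of their assembly factors, in mouse muscle cells. They were taken by name from the table of raw counts, as symbols starting with Nduf, Uqcr, Cox4, Cox5, Cox6, Cox7, Cox8 or Atp5 and the 4 Sdh genes, and had to reach at least 1 CPM (counts scaled to the total of the sample) in all 4 control samples. This gave 88 members out of 97 matching names, among 42391 gene entries. Complex I had 37 members (7 core and 30 supernumerary subunits), complex II 4, complex III 8, complex IV 11 and complex V 17. The other 11 were 8 assembly factors of complex I (Ndufaf1 to Ndufaf8), the complex I paralogs Ndufb4b and Ndufb4c, and Cox7a2l, a factor of respiratory supercomplexes. Ndufa4 is named for complex I but is counted here with complex IV, of which it is a subunit.

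RNA was sequenced from C2C12 cells, a mouse myoblast line, and from primary myoblasts cultured from mouse hindlimb muscle. Each was transfected with a non-targeting siRNA (control) or a single Septin9 siRNA (Septin9-deficient), with 2 replicates in each of the 4 groups and 8 samples in all. C2C12 cells were lysed 60 h after transfection, of which the last 12 h were in differentiation medium, and had been given siRNA at 50 nM, after 5 h at 100 nM. Primary myoblasts were lysed 48 h after transfection, still in proliferation medium. Cell line, culture medium, differentiation state and time after transfection therefore differ together between the cell types and cannot be told apart.

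Complexes I to IV form the electron transport chain of the inner mitochondrial membrane. Complexes I and II pass electrons from NADH and succinate to ubiquinone, complex III passes them on to cytochrome c and complex IV to oxygen, while complexes I, III and IV pump protons that complex V, the ATP synthase, uses to make ATP. Some subunits are encoded in mitochondrial DNA and were not analysed here. Skeletal muscle replaces several subunits of complex IV by muscle isoforms during its maturation and raises its mitochondrial content as myoblasts become myotubes.

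Between 20898611 and 27223414 reads were counted per sample, and the members took 0.928 to 1.04% of them in C2C12 cells and 1.09 to 1.37% in primary myoblasts. Septin9 itself stood at 409 and 435 CPM in the C2C12 controls and at 147 and 185 CPM after its siRNA, and at 376 and 473 CPM in the primary myoblast controls and 208 and 159 CPM after siRNA. Septin9 was thus lower after its siRNA in both cell types, as labelled (log2 fold change -1.36 ± 0.08 (SE), adjusted p = 5.11e-09, and -1.21 ± 0.15, adjusted p = 0.000134, edgeR quasi-likelihood test). The primary myoblasts, labelled as proliferating, expressed all 23 listed myocyte markers, the contractile and fusion genes of differentiating muscle. Summed, these stood at 7258 to 33528 CPM in primary myoblasts and at 150.2 to 446 CPM in C2C12 cells. The 8 fibroblast markers summed to 4188 to 4751 CPM in C2C12 cells, almost all of it collagen mRNA with Thy1 at 0 counts, and in primary myoblasts to 367 and 396 CPM in replicate 1 and 1300.1 and 1631 CPM in replicate 2. Endothelial, immune and adipocyte markers summed to at most 4.77 CPM per list in any sample. In bulk RNA, fewer cells of a type and less RNA per cell cannot be told apart.

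Expression levels differed between the complexes. Divided by transcript length, the median member of complex IV stood at 208 CPM per kb in the C2C12 controls and 292 CPM per kb in the primary myoblast controls. Complex V followed with 174 and 235 CPM per kb, and complex III with 104 and 149 CPM per kb. Complex II had medians of 67.5 and 98.6 CPM per kb and complex I of 62.3 and 69.0 CPM per kb. The ranges of the complexes overlapped, so these medians describe an order and not a separation. The assembly factors of complex I, which help to build the complex and then leave it, were far lower, with a median of 9.23 and 12.7 CPM per kb. The highest level belonged to Atp5b, the catalytic beta subunit of the ATP synthase, with 655 CPM per kb in C2C12 and 789 CPM per kb in primary myoblast controls.

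The control samples were compared to learn how far the genes differ between the cell types before any knockdown. In C2C12 controls most OXPHOS genes stood lower than in primary myoblast controls, by a median log2 fold change of -0.36, while the median over all 17103 genes tested was -0.01. Of the 88 members, 74 had a negative value and in 60 both C2C12 controls lay below both primary myoblast controls, which held for 37.6% of all genes. In 9 members both lay above, against 37.5% of all genes. The edgeR test called 17 members lower and 1 higher at an adjusted p under 0.05, against 18.3% of all genes called lower and 16.2% called higher. Together, 18 of 88 members were called against 34.5% of all genes. The share of members called lower was near that of all genes, whereas few members were called higher.

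The differences ran through all complexes, with medians of -0.29 in complex I, -0.48 in complex II, -0.56 in complex III, -0.43 in complex IV and -0.41 in complex V on the log2 scale. The 7 core subunits of complex I, which carry its iron-sulfur clusters and flavin, had a median of -0.13 and none was called. The supernumerary subunits, which surround the core, had a median of -0.30, with 5 called lower and 1 higher. Together these were 20% of the supernumerary subunits, below the 34.5% of all genes called in either direction. Without the second C2C12 control the median over the 88 members was -0.34, and without the first it was -0.38. Without primary myoblast control 1 or 2 it was -0.24 or -0.43, so the median stayed negative in every one of these fits. Each of them left 1 sample in a group, so their calls are not given.

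**Figure D1:**
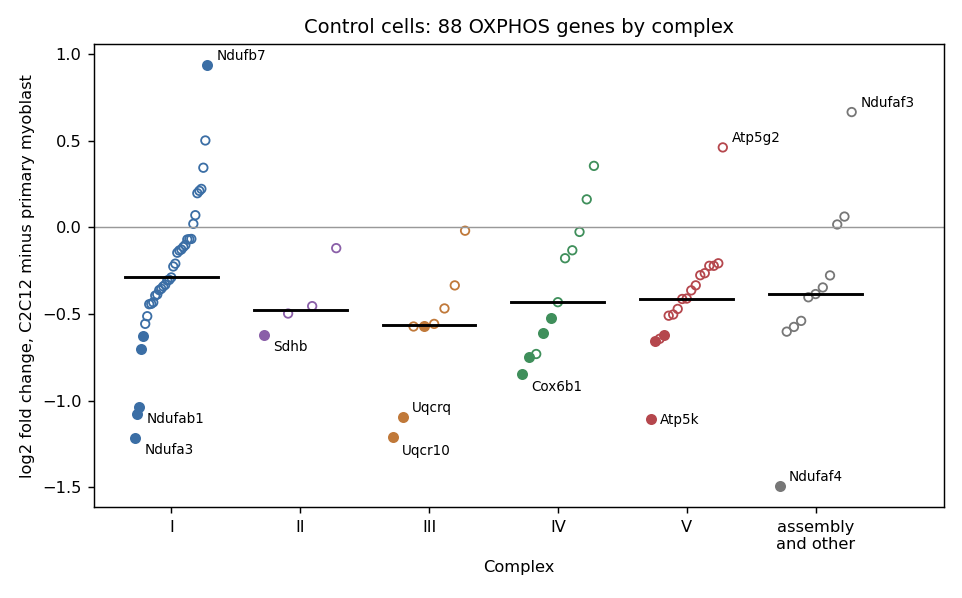
Log2 fold change between C2C12 and primary myoblast controls (y axis, C2C12 minus primary myoblast) for the 88 genes, grouped by complex (x axis). Each circle is one gene, filled circles passed an adjusted p of 0.05 in edgeR, and bars mark the median. The medians lie between -0.29 and -0.56 in complexes I to V, and Ndufb7 is the one gene called higher in C2C12 cells.

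In complex I, Ndufb7 was the one member called higher in C2C12 cells. This supernumerary subunit of the membrane arm stood at 121 and 107 CPM in the C2C12 controls against 63.2 and 54.8 CPM in the primary myoblast controls. The C2C12 samples thus lay 1.91-fold above the primary myoblasts without overlap (log2 fold change 0.94 ± 0.15, adjusted p = 0.0144, edgeR). Ndufa3, another small membrane-arm subunit, went the opposite way, with 15.7 and 17.6 CPM in C2C12 and 38.8 and 38.0 CPM in primary myoblasts. It was called lower in C2C12 cells (log2 fold change -1.22 ± 0.16, adjusted p = 0.0087). Ndufab1, the mitochondrial acyl carrier protein, and Ndufb1 were also called lower, at -1.08 ± 0.25 and -1.04 ± 0.18 on the log2 scale (adjusted p = 0.031 and 0.016). The assembly factor Ndufaf4 had the largest difference of all members. Its values were 17.2 and 13.4 CPM in C2C12 controls and 43.3 and 42.2 CPM in primary myoblast controls (log2 fold change -1.49 ± 0.19, adjusted p = 0.0085).

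Complex II, which is also succinate dehydrogenase of the tricarboxylic acid cycle, has 4 subunits, and all 4 had a negative log2 fold change. Sdhb, the iron-sulfur subunit, stood at 73.5 and 67.5 CPM in C2C12 and 111 and 105 CPM in primary myoblast controls, and was called lower (log2 fold change -0.62 ± 0.13, adjusted p = 0.026). Sdha, the flavoprotein, and the membrane anchor Sdhd had similar values (-0.45 ± 0.15 and -0.50 ± 0.15) without passing the threshold, with adjusted p of 0.069 and 0.062. The other anchor, Sdhc, was at -0.12 ± 0.14.

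Complex III held 3 called members among 8 (37.5%, against 18.3% of all genes called lower), all small accessory subunits and all lower in C2C12 cells. Uqcr10 stood at 43.6 and 42.6 CPM in C2C12 controls against 111 and 86.9 CPM in primary myoblast controls (log2 fold change -1.21 ± 0.17, adjusted p = 0.011). Uqcrq, which stood at 65.0 and 54.5 against 140.1 and 114 CPM, was lower by a similar amount (-1.09 ± 0.18, adjusted p = 0.014). In both genes the cell types were clearly separated, whereas Uqcrb, another accessory subunit, was nearly equal, with 79.9 and 79.5 CPM in C2C12 and 82.3 and 78.3 CPM in primary myoblasts.

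In complex IV, Cox6b1, Cox8a, Cox4i1 and Cox7c were called lower in C2C12 cells, with log2 fold changes of -0.85 ± 0.14, -0.75 ± 0.20, -0.61 ± 0.16 and -0.52 ± 0.15. These were 36.4% of the members of complex IV, against 18.3% of all genes called lower. Cox6b1, which lies where the monomers of complex IV meet, stood at 110.4 and 117 CPM in C2C12 and 214 and 192 CPM in primary myoblast controls. Cox6c had the highest value of the complex, 0.35 ± 0.16 (adjusted p = 0.14), with 183 and 216 against 163 and 147 CPM. The C2C12 controls were not equally tight in every gene of the complex. For Cox5a and Cox5b, which encode the matrix-side subunits, they stood at 95.1 and 58.2 CPM and at 102 and 57.9 CPM, and neither gene was called.

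In complex V, Atp5k, which encodes the e subunit of the membrane part, stood at 31.4 and 35.2 CPM in C2C12 and 78.0 and 64.4 CPM in primary myoblast controls (log2 fold change -1.10 ± 0.17, adjusted p = 0.012). Atp5l, the g subunit of the membrane part, was also called lower (-0.62 ± 0.16, adjusted p = 0.042). The catalytic subunit differed less. Its gene Atp5b stood at 1392 and 1119 CPM in C2C12 and 1588 and 1434 CPM in primary myoblasts, so that the groups did not overlap and the difference was not called.

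The c subunit of complex V, which forms its rotating ring, is encoded by Atp5g1, Atp5g2 and Atp5g3, whose products differ in the targeting peptide but give the same mature protein. These genes did not share one direction between the cell types. Atp5g3 stood at 293 and 254 CPM in C2C12 and 464 and 389.8 CPM in primary myoblast controls and was called lower (log2 fold change -0.65 ± 0.17, adjusted p = 0.042). Atp5g1 had a similar value, -0.64 ± 0.20, from 90.0 and 68.1 against 135 and 111 CPM, but missed the threshold (adjusted p = 0.065). Atp5g2 lay on the other side, with 234 and 259 CPM in C2C12 and 178 and 178 CPM in primary myoblast controls (0.46 ± 0.14, adjusted p = 0.059). Its share of the CPM of this gene family was 37.9 and 44.5% in the C2C12 controls and 22.9 and 26.2% in the primary myoblast controls, without overlap. Septin9-deficient C2C12 cells had shares of 38.9 and 42.0%, Septin9-deficient primary myoblasts of 20.5 and 25.6%, so that the cell types stayed apart. The shares describe CPM and not molecules, because they were not divided by transcript length.

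**Figure D2:**
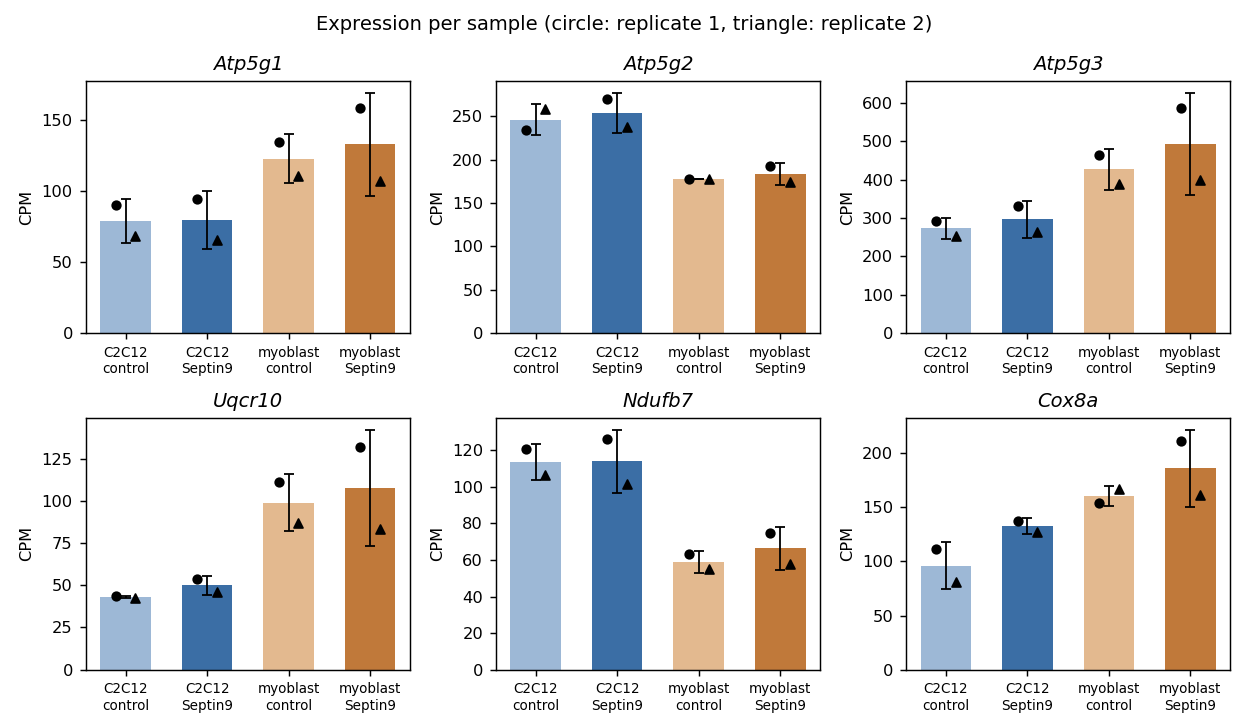
CPM (y axis) of Atp5g1, Atp5g2, Atp5g3, Uqcr10, Ndufb7 and Cox8a in the 4 groups (x axis, 2 samples each). Bars are group means, error bars the SD, circles replicate 1 and triangles replicate 2. Atp5g2 and Ndufb7 are higher in C2C12 controls than in primary myoblast controls while the other genes are lower, and Cox8a is higher in both Septin9-deficient C2C12 samples than in their controls.

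The upstream sequences of these genes are shown because some stood higher and others lower in C2C12 controls than in primary myoblast controls. Each is the 250 bases before the transcription start in RefSeq on GRCm38.p6, written 5′ to 3′ on the gene's strand, with matches to the searched motifs in capitals. The c subunit genes are Atp5g1 (chr11:96075632-96075881, minus strand), Atp5g2 (chr15:102671048-102671297, minus strand) and Atp5g3 (chr2:73911327-73911576, minus strand). They are followed by Uqcr10 (chr11:4704345-4704594, minus strand) and Cox8a (chr19:7217617-7217866, minus strand), lower in C2C12 controls, and Ndufb7 (chr8:83566508-83566757, plus strand), higher.
Atp5g1: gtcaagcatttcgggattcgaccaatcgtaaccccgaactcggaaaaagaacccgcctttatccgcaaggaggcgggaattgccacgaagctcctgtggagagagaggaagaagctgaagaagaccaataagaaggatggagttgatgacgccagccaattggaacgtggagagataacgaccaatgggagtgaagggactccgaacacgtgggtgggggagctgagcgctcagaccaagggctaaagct
Atp5g2: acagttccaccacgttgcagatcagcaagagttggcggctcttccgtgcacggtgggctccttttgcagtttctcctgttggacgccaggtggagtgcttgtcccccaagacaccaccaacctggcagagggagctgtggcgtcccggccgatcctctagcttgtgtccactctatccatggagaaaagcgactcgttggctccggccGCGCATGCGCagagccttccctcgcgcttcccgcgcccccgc
Atp5g3: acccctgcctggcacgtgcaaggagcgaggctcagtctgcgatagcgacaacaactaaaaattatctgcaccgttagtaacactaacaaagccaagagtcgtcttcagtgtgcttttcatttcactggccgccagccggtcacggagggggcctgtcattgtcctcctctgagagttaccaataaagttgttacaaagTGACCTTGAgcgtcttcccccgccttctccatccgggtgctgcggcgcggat
Uqcr10: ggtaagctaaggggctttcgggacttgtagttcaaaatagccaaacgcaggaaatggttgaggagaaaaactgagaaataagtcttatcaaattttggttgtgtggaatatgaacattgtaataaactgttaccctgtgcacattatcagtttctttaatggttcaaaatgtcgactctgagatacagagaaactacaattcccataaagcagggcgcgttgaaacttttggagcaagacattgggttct
Cox8a: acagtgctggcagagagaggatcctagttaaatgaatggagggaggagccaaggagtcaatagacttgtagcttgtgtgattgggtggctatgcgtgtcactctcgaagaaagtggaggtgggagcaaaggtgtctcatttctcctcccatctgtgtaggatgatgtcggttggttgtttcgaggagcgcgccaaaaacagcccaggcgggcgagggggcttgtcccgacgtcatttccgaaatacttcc
Ndufb7: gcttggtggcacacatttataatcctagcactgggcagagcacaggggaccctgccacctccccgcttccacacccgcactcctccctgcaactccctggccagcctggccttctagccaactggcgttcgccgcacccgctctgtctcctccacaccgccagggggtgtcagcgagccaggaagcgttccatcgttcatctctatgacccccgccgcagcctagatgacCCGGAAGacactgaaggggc

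The motifs searched on both strands were those of factors known to bind respiratory genes, and a match says only that the letters are there. Of the 88 members, 74 had a start site in the RefSeq table. The shares set beside theirs are those of all genes in that table, which were not limited to expressed genes as the members were. The core bound by nuclear respiratory factor 1 (NRF1), GCATGCGC, lay in 9 of the 74 (12.2%) and in 2.56% of 27025 genes with windows of the same length. These 9 were Ndufa6, Ndufa8, Ndufa11, Sdhb, Cox6a1, Atp5g2, Atp5k, Atp5l and Ndufaf4, and in Atp5g2 it was found on both strands in overlapping positions, 42 and 40 bases before the start. The letters of the ETS family, CCGGAAG, were found in 14 (18.9%, against 7.83%), including Ndufb7, where they began 20 bases before the start. The element of the estrogen-related receptors, TCAAGGTCA, was found in 1 member, Atp5g3, as TGACCTTGA on the gene's strand 52 bases before the start (1.35%, against 0.422%). The YY1 letters AAGATGGC lay in 1 member (1.35%, against 1.83%) and the E-box CAGCTG, the core bound by myogenic factors, in 5 (6.76%, against 14.7%). None of these letters were present in the windows of Atp5g1, Uqcr10 and Cox8a.

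The limit of 1 CPM left out 9 names, and among them were the muscle isoforms of complex IV. The excluded names each fell to 0.047 CPM or less in at least 1 control sample, while the lowest members, Ndufaf6 and Ndufaf3, stayed at or above 4.39 and 4.70 CPM, so no gene lay near the limit. Cox6a2, the heart and muscle isoform of subunit 6a, had 1 count in each C2C12 control and 251 and 192 counts in the primary myoblast controls. Cox8b, the muscle isoform of subunit 8, had 0 and 2 counts in C2C12 and 303 and 95 counts in primary myoblasts. Cox7a1, the muscle isoform of subunit 7a, had 4 and 1 counts in C2C12 and 60 and 29 counts in primary myoblasts. All 3 genes were thus near 0 in C2C12 controls and clearly detected in primary myoblast controls. Per transcript length, Cox6a2 made up 6.99 and 4.69% of the summed level of Cox6a1 and Cox6a2 there, and Cox8b 11.4 and 3.14% of that of Cox8a and Cox8b, so the general isoforms remained the higher ones.

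Genes outside the complexes that serve the chain or mitochondrial biogenesis were compared by lists, beside all genes, of which 18.3% were called lower and 16.2% higher between controls with a median log2 fold change of -0.01. Among 40 tested genes of the other respiratory chain list (cytochrome c and further assembly factors among them), 12 were called lower and 1 higher in C2C12 controls, with a median log2 fold change of -0.31. Cycs, cytochrome c, stood at 154 and 114 CPM in C2C12 and 272 and 268 CPM in primary myoblasts (-1.02 ± 0.19, adjusted p = 0.019). The largest differences of the list were those of Lyrm7, a chaperone for the Rieske protein of complex III, at -3.12 ± 0.35, and Sdhaf1, an assembly factor of complex II, at -1.94 ± 0.23. Nubpl, which inserts iron-sulfur clusters into complex I, was the one called higher (0.80 ± 0.21). Of 18 genes of the tricarboxylic acid cycle and pyruvate dehydrogenase 4 were called lower (Idh3a, Suclg2, Pdhx and Mdh2) and 0 higher, with a median of -0.32. The share called lower, 22.2%, was near that of all genes. The 18 glycolysis genes had 7 called lower and 3 higher with a median of -0.71. Their values ran from -6.17 ± 0.78 in Pgam2, the muscle phosphoglycerate mutase, to 3.48 in a gene not named here.

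The 20 listed regulators of mitochondrial biogenesis held 5 called lower and 2 higher in C2C12 controls, with a median of -0.12. These 7 calls were 35.0% of the list, close to the 34.5% of all genes called in either direction. The 2 called higher are not named here, and the highest value of the list was 1.43. Ppargc1a, the coactivator PGC-1α, had 0 counts in both C2C12 controls and stood at 15.0 and 7.70 CPM in the primary myoblast controls. With a floor of 3 counts over the 2 C2C12 controls together, it was at least 182-fold lower in C2C12 cells. The related coactivators Ppargc1b and Pprc1 were called lower, with -1.29 ± 0.26 and -0.83 ± 0.19 on the log2 scale. Esrrb and Esrrg, 2 estrogen-related receptors, were also called lower, with 0 to 3 counts per C2C12 control and 30 to 320 counts per primary myoblast control. Esrra, the widely expressed receptor of that family, and Tfam, the factor that packs and transcribes mitochondrial DNA, differed little (-0.22 ± 0.14 and -0.11 ± 0.13, adjusted p = 0.26 and 0.55). Beside these differences all 23 tested myocyte markers were called lower in C2C12 controls, with a median log2 fold change of -6.39, and their part in the OXPHOS values was not tested.

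The effect of the Septin9 siRNA was then followed within each cell type. Over both replicate pairs together, the OXPHOS genes of C2C12 cells had no common direction. Their median log2 fold change was 0.01, that of all 15814 genes -0.001, and 48 of 88 were positive. Within each pair most of them shared a direction, higher in pair 1 (median 0.09) and lower in pair 2 (median -0.09). The edgeR test with the replicate number as block called 1 member higher and 4 lower, against 2.64% and 4.12% of all genes, and together 5 of 88 against 6.75%. None of the 5 reached a 1.5-fold change, which 1.57% of all genes did when called.

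Cox8a, a small subunit of complex IV, was the one called higher. It stood at 112 and 80.6 CPM in the C2C12 controls and at 138 and 127 CPM in the Septin9-deficient cells, so that the groups did not overlap. The log2 fold change was 0.47 ± 0.08 (1.39-fold, adjusted p = 0.0011). It was not called when pair 2 was left out, and with pair 1 left out the value was 0.66. The comparison of the cell types uses the same C2C12 controls, of which the second was low.

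Ndufb5 and Ndufb4, supernumerary subunits of the membrane arm of complex I, fell after Septin9 siRNA in C2C12 cells. Ndufb5 stood at 60.7 and 67.4 CPM in controls and 54.2 and 54.0 CPM after siRNA (log2 fold change -0.25 ± 0.07, adjusted p = 0.039). Ndufb4 stood at 40.7 and 40.7 CPM in controls and 35.8 and 33.0 CPM after siRNA (-0.25 ± 0.07, adjusted p = 0.048). The paralogs Ndufb4b and Ndufb4c were called with it (-0.36 ± 0.10 and -0.33 ± 0.09), but they are not independent of it. In every sample these entries held 43.8 to 50.5% and 52.6 to 60.1% of the count of Ndufb4, so reads of one gene may have been counted on the others. None of the 4 was called by DESeq2 with the same design or with either pair left out.

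In primary myoblasts 74 of 88 members had a positive log2 fold change after Septin9 siRNA, with a median of 0.10 against 0.01 over all 17117 genes. The edgeR test called 0 members, against 4.99% of all genes (3.95% higher and 1.04% lower), with 10 members at an unadjusted p under 0.05, and DESeq2 with the same design also called 0. All 8 members of complex III, all 11 of complex IV and all 17 of complex V had positive values, while 6 of the 8 assembly factors had negative ones. The highest values were those of Ndufaf3 (0.49 ± 0.18), Uqcrfs1, the Rieske protein of complex III (0.33 ± 0.11), Ndufab1 (0.32 ± 0.11) and Cox5a (0.32 ± 0.12), with adjusted p between 0.097 and 0.15. When batch effects were removed with ComBat-Seq and DESeq2 was used without the block, 4 of 88 members were called higher. These were Uqcrfs1, Ndufab1, Cox5a and Cox5b, while 5.40% of all genes were called in either direction in that fit.

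**Figure D3:**
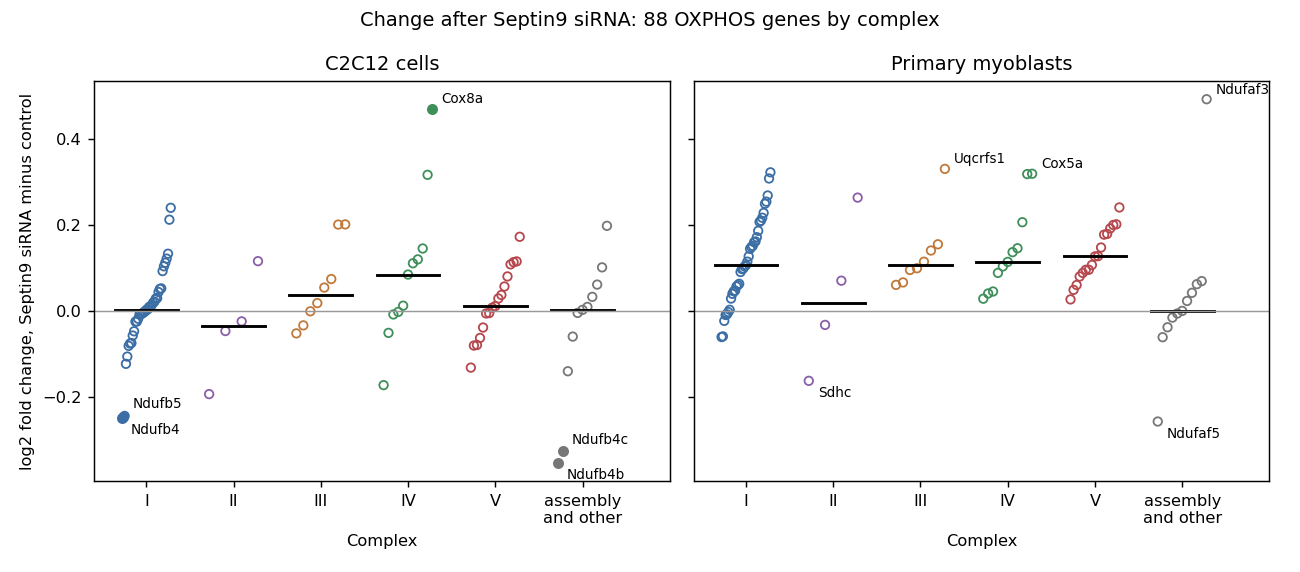
Log2 fold change after Septin9 siRNA (y axis, Septin9 siRNA minus control) for the 88 genes by complex (x axis), in C2C12 cells (left) and primary myoblasts (right). Filled circles passed an adjusted p of 0.05 in edgeR and bars mark the median. In C2C12 cells the medians lie near 0 with 5 genes called, and in primary myoblasts most genes lie above 0 with 0 called.

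The positive values in primary myoblasts lay mainly in replicate pair 1. There 85 of 88 members were higher in the Septin9-deficient than in the control sample, with a median log2 ratio of 0.23, whereas in pair 2 there were 36 of 88 with a median of -0.03. Both pairs were higher for 35 members and both lower for 2, against 32% and 29.4% of all genes. Atp5g3 shows the pattern, with 464 and 389.8 CPM in the controls and 587 and 399.9 CPM after siRNA. Uqcrfs1 was higher in both pairs, from 113 and 108 CPM to 142 and 135 CPM. With pair 2 left out the median log2 fold change of the members was 0.22, and with pair 1 left out it was -0.02.

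C2C12 pairs also went opposite ways, with 73 of 88 members higher in pair 1 (median 0.09) and 24 of 88 in pair 2 (median -0.09). Both pairs were higher for 19 members and both lower for 10, below the 31.3% and 30.4% of all genes.

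**Figure D4:**
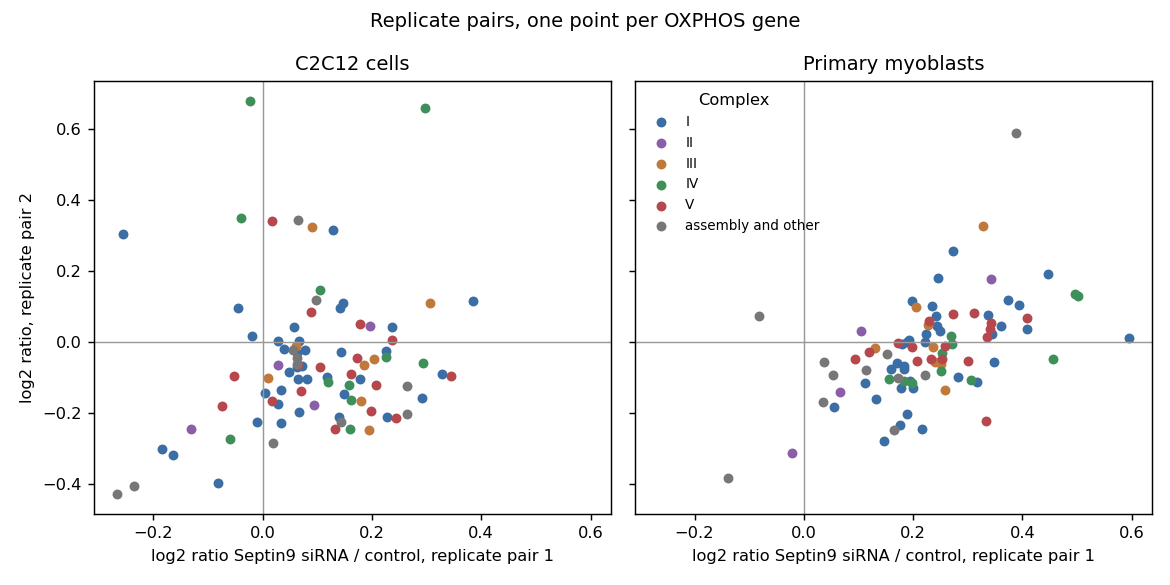
Log2 ratio of the Septin9-deficient to the control sample in replicate pair 1 (x axis) and pair 2 (y axis), one point per gene and coloured by complex, in C2C12 cells (left) and primary myoblasts (right). In primary myoblasts 85 of 88 points lie right of 0 and 36 lie above 0, and in C2C12 cells 73 lie right of 0 and 24 above.

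The change after Septin9 siRNA was not shown to differ between the cell types. The interaction test on all 8 samples called 0 members and 0 of all genes (0%), with 3 members at an unadjusted p under 0.05 (Ndufaf3, Ndufb4b and Ndufb4c), and DESeq2 also called 0 members. The comparisons in the 2 cell types share no samples. Members higher in both cell types numbered 44, members lower in both 10, and 34 went opposite ways. The same sign was thus seen in 61.4% of members and in 61.0% of the 15073 genes tested in both.

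The muscle isoforms near 0 in C2C12 cells could be compared in primary myoblasts. Cox8b rose after Septin9 siRNA, from 303 and 95 counts (13.0 and 3.53 CPM) to 447 and 169 counts (20.0 and 8.06 CPM), and the log2 fold change was 0.86 ± 0.17 (adjusted p = 0.0066, edgeR). The increase was seen in both pairs, although the siRNA groups overlapped. Replicate 2 lay below replicate 1 by more than the siRNA change (log2 fold change -1.55 ± 0.17, adjusted p = 2.34e-06, edgeR). Cox6a2 had a value of 0.65 ± 0.20 and missed the threshold (adjusted p = 0.070), with 10.8 and 7.14 CPM in controls and 11.9 and 15.9 CPM after siRNA. Cox7a1 was at 0.39 ± 0.31. Beside them, 22 of 23 tested myocyte markers had a positive value in Septin9-deficient primary myoblasts (median log2 fold change 0.88). Of these markers 20 were called higher, against 3.95% of all genes. Their median log2 ratio was 0.55 in pair 1 and 1.18 in pair 2. That of the 88 OXPHOS genes was 0.23 and -0.03, and a link between markers and OXPHOS genes was not tested. In C2C12 cells 21 of 22 were positive (median 0.63) and 12 were called higher, against 2.64% of all genes. In none of these lists was a marker called lower.

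Genes that feed the chain were compared after Septin9 siRNA by the same lists. Of all genes, 6.75% were called in C2C12 cells and 4.99% in primary myoblasts. In C2C12 cells 2.5% of the other respiratory chain list, 11.1% of the tricarboxylic acid cycle list and 5.56% of the glycolysis list were called. In primary myoblasts these shares were 0%, 0% and 16.7%. Among the other respiratory chain genes, Timmdc1, an assembly factor of complex I, was the one called in C2C12 cells (0.32 ± 0.09), and 0 of 40 were called in primary myoblasts, where 6 had an unadjusted p under 0.05. Of the tricarboxylic acid cycle genes, Idh2 and Cs, which encode isocitrate dehydrogenase and citrate synthase, fell in C2C12 cells, from 180.1 and 182 to 123 and 140.1 CPM and from 255 and 214 to 202 and 176 CPM (-0.47 ± 0.07 and -0.31 ± 0.07). In primary myoblasts they had values of -0.35 ± 0.11 and -0.19 ± 0.12 that did not pass (adjusted p = 0.097 and 0.48). Gpi1, glucose-6-phosphate isomerase of glycolysis, fell in both cell types (-0.76 ± 0.07 and -0.63 ± 0.13), and Pgam2 and Pfkm, the muscle phosphofructokinase, rose in primary myoblasts (0.96 ± 0.14 and 0.58 ± 0.14). Of the regulators of biogenesis, 0 of 17 tested in C2C12 cells and 0 of 20 in primary myoblasts were called by edgeR, with 2 at an unadjusted p under 0.05 in each.

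More members were called between replicates than between siRNA groups, which also held for all genes. Of all genes, 35.7% were called between replicates and 6.75% between siRNA groups in C2C12 cells. In primary myoblasts these shares were 24.5% and 4.99%. Of the members, 31.8% were called between C2C12 replicates and 37.5% between primary myoblast replicates. In primary myoblasts replicate 2 was lower than replicate 1 for 84 of 88 members, with a median log2 fold change of -0.29, and 33 members were called lower and 0 higher, against 11.9% and 12.5% of all genes. Complex I held 17 of these, complex V 7, complex III 4 and complexes II and IV 1 each, beside Ndufb4b, Ndufb4c and Cox7a2l. Uqcr10 led with -0.48 ± 0.11 (adjusted p = 0.0033), from 111 and 132 CPM in the control and Septin9-deficient samples of replicate 1 to 86.9 and 83.2 CPM in replicate 2. Uqcrfs1 was among the least affected (-0.05 ± 0.11). In C2C12 cells 25 members were called lower and 3 higher in replicate 2, against 18.3% and 17.4% of all genes, with a median of -0.12. Ndufb2, Cox5a and Ndufaf2 had the largest decreases (-0.56 ± 0.09, -0.54 ± 0.08 and -0.53 ± 0.12), and Cox7a2l had the largest increase of the 3 called higher (0.26 ± 0.07). None of these calls reached 1.5-fold, which 11.3% of all genes did when called in C2C12 cells and 15.9% in primary myoblasts.

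Markers of other states moved with the replicates as well. In primary myoblasts all 23 tested myocyte markers were called lower and all 6 tested fibroblast markers higher in replicate 2. In C2C12 cells 20 of 22 tested myocyte markers were called higher in replicate 2 and 0 lower. The median OXPHOS value was thus below 0 in both cell types, at -0.29 with 84 of 88 members negative in primary myoblasts and at -0.12 with 67 of 88 negative in C2C12 cells, whereas the myocyte markers were lower in replicate 2 of primary myoblasts and higher in that of C2C12 cells. The part of these markers in the OXPHOS values was not tested.

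**Figure D5:**
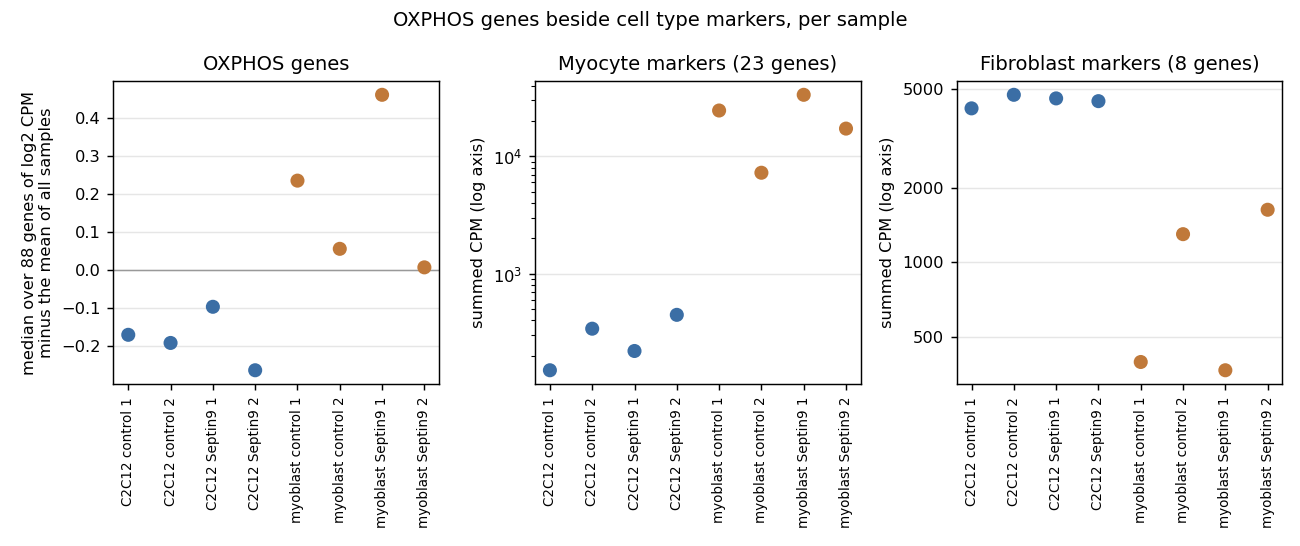
Per sample (x axis), the median over the 88 genes of log2 CPM minus its mean over all samples (left), the summed CPM of 23 myocyte markers (middle, log axis) and of 8 fibroblast markers (right, log axis), with C2C12 in blue and primary myoblasts in orange. The OXPHOS median is highest in Septin9-deficient primary myoblast replicate 1 (0.46), and the 4 C2C12 samples lie between -0.26 and -0.10.

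Some counts are uncertain because genes share reads or positions. The table lists further copies of Atp5a1, Ndufs3, Uqcrc1 and Ndufa7, which were left out. The copies of the first 3 held the same counts as the member to within 2 reads per sample and those of Ndufa7 held 100% and 95.4% of its count, so reads were counted at each copy. The entries Ndufb4b and Ndufb4c lie wholly within Dock8 and Mroh5, respectively. In all, the annotated spans of 29 of the 88 members overlap another gene. Whether reads were counted by strand is not given in the sources used here, so reads of overlapping genes cannot be told apart.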

How the data were processed

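Poly(A) RNA of 8 samples was sequenced. Per the methods and the submitters' processing notes, the authors mapped reads with STAR 2.7.2 to GRCm38, counted them per gene with featureCounts 2.0.1 and deposited raw counts, which were used here. The normalized tables deposited beside them were not used. From the counts, 16 broken lines were left out. Differences were tested in R 4.3.3 with edgeR 4.0.16 (TMM, filterByExpr, quasi-likelihood test, Benjamini-Hochberg adjustment over all genes tested). A gene was called at an adjusted p-value under 0.05. CPM were scaled by TMM over all samples. SE were computed from the F statistic, and pair ratios used a prior count of 2.

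Within a cell type, the replicate number entered as a block, since the study describes independent experiments and removes their batch effect. Deviations from the group means correlated between same-numbered samples (r = 0.553 in C2C12 cells and 0.791 in primary myoblasts, across genes, which are not independent replicates). The controls were compared without a block. P-values of the comparison of controls measure the spread between 2 replicates per group. Where the replicate block was used, they measure how far the change differed between the 2 replicate pairs. Counting intervals were not computed. Transcript lengths came from GENCODE M21 (87 of 88 members), promoters from RefSeq. Fits were tested on simulated data.

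Alternatives were other scalings, filters, thresholds and samples, DESeq2 1.42.0, ComBat-Seq of sva 3.50.0, and a length and GC offset. The members and lists were chosen with earlier results of these data known. Named were Septin9, up to 8 called members per comparison and direction, the highest and lowest member of each complex, the muscle isoform pairs, the Sdh genes, Ppargc1a, Esrra and Tfam, the members nearest the 1 CPM limit, and the called genes of other lists (all if 5 or fewer, otherwise the 2 largest in each direction). Of these called genes, not all are named for glycolysis, the biogenesis regulators and the cell type markers. Atp5g1, Cycs, Ndufb2, Cox5b, Uqcrb, Atp5b, Atp5l and others beside them were chosen after their values were seen. Mitochondrially encoded genes were not analysed here.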

Additional observations from a re-analysis of the deposited data

How the results depend on the processing

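Numbers of called members depended on the processing, while medians kept their sign between the cell types. After Septin9 siRNA in C2C12 cells, the 1 member called higher became 4 with library size alone, 2 with no filter, and 0 without the replicate block, with all 8 samples in one fit or with at least 1.5-fold. The 4 called lower became 0 with DESeq2, with ComBat-Seq and DESeq2, without the replicate block, with all 8 samples, with an adjusted p under 0.01 and with at least 1.5-fold. Of all genes, 6.75% were called in the main fit and 1.79% with DESeq2. The share was 5.22% with ComBat-Seq and DESeq2, 8.86% with library size alone and 0.619% with all 8 samples. Leaving out C2C12 pair 1 or pair 2 gave a median over the members of -0.09 or 0.09. In primary myoblasts, ComBat-Seq and DESeq2 called 4 higher, against 5.40% of all genes called in either direction. Leaving out pair 1 or pair 2 there gave a median over the members of -0.02 or 0.22. Without the replicate block 0 genes of any kind were called in either cell type. With 1 pair left, the spread was estimated with the other cell type. Between controls, the 1 called higher became 2 with library size alone, DESeq2, the length and GC offset or all 8 samples, and 0 with an adjusted p under 0.01. The 17 called lower became 27 with DESeq2, 10 with the offset and 2 with an adjusted p under 0.01. With a replicate block 8 were called lower, although no source pairs these samples. Of all genes, 34.5% were called in the main fit, 37.7% with DESeq2, 33.9% with the offset and 25.3% with a replicate block. Leaving out a control gave medians over the members between -0.43 and -0.24. Same-numbered controls deviated in opposite directions (r = -0.132). A crossed pairing, added after seeing the data, called 22 lower and 1 higher, against 38.9% of all genes called in either direction. For the interaction, leaving out a pair gave medians over the members between -0.03 and 0.23. For replicate 2 against 1 in C2C12 cells, the 3 higher became 7 with library size alone, 1 with DESeq2, all 8 samples or an adjusted p under 0.01, and the 25 lower became 14 with DESeq2 and 7 with all 8 samples. Of all genes, 35.7% were called there in the main fit, 38.1% with library size alone, 16.3% with DESeq2 and 19.3% with all 8 samples. In primary myoblasts the 33 lower became 21 with RLE size factors, 14 with library size alone and 3 with DESeq2. With an adjusted p under 0.01 they became 6. The share of all genes called was 24.5% in the main fit, 21.3% with RLE size factors, 21.4% with library size alone and 11.7% with DESeq2. With at least 1.5-fold, 0 of the members called between replicates remained. The causes were not tested, beyond the stricter thresholds and fewer samples by construction. The 88 members were the same with TMM CPM. Depth was no limit for the members, at 4.39 CPM or more in the controls.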
